A study of Mus musculus with 4 samples.

Results

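The Wnt ligands, their Frizzled and Lrp5/6 receptors and the secreted antagonists of the Sfrp and Dkk families were examined in bulk RNA sequencing of embryonic mouse cortex. The members were the protein-coding genes of the deposited count table whose symbol is Wnt, Fzd, Sfrp or Dkk followed by a number, together with Lrp5 and Lrp6. These were 37 of 26433 genes, namely 18 ligands, 12 receptors, 4 Sfrp genes and 3 Dkk genes.

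The libraries came from E15 telencephalic tissue, labelled as cerebral cortex, of conditional knock-in (cKI f/+) and wild-type (WT) mice of strain C57BL/6, with 2 libraries of each genotype. The cKI f/+ mice carry human SERPINA3 with a Flag tag, behind a CAG promoter and a floxed stop cassette, in the Rosa26 locus. Nestin-Cre removes the stop in Nestin-positive neural progenitors and their progeny. Other cells of the tissue keep it. The founders had been bred with B6D2F2 mice before the cross to Nestin-Cre, and the labels do not say whether WT embryos carried Cre or the floxed allele, or whether RNA of several embryos was pooled. The table names the libraries KI2 and KI3 (cKI f/+) and WT1 and WT3 (WT). The study's methods define biological replicates in mice as different embryos, but no label ties these libraries to embryos, so the p-values measure the spread between these libraries, part of which may be technical.

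Wnt proteins are secreted, lipid-modified signals. They bind the cysteine-rich domain of Frizzled receptors, and together with the co-receptors Lrp5 or Lrp6 they keep beta-catenin from being degraded, so that it can act with Tcf and Lef factors on target genes. Sfrp proteins carry a Frizzled-like domain and bind Wnt proteins outside the cell, and Dkk1 and Dkk2 act on Lrp5 and Lrp6. In the embryonic telencephalon the cortical hem, at the medial edge of the cortex next to the choroid plexus, is a known source of Wnt2b, Wnt3a, Wnt5a and Wnt8b, whereas Wnt7a and Wnt7b are known from the cortex itself.

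The counts summed to between 17423512 and 18119444 per library, and the floor of 3 counts lay between 0.166 and 0.172 CPM (counts scaled to the total of the library). Of 15786 genes with enough reads to be tested, 19 were called. The sex-linked transcripts separated the libraries in the same way as genotype. Xist had 13223 and 11882 reads in KI2 and KI3 against 5 and 5 in WT1 and WT3, and Kdm5d, on chromosome Y, had 0 and 0 against 951 and 918. The effects of genotype and embryo sex therefore cannot be told apart here. Dorsal telencephalic markers were present in every library, their 10 genes summing to between 4154 and 4480 CPM.

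Between cKI f/+ and WT mice, 0 of the 26 tested members were called at a Benjamini-Hochberg adjusted p under 0.05 in edgeR's quasi-likelihood test, where 0.12% of all tested genes were, 0.0697% higher and 0.0507% lower in cKI f/+ mice. The adjusted p-values ranged from 0.667 to 0.999. DESeq2 also called 0 members. At an unadjusted p under 0.05 there were 5 members, Wnt8b, Wnt3a, Wnt9a, Fzd9 and Dkk3, all with a higher level in cKI f/+ mice, and 2.26% of all tested genes met that threshold in that direction. With a lower level there were 0 members, against 2.34% of all tested genes. The same 5 members had both cKI f/+ libraries above both WT libraries, a pattern found in 16% of all tested genes. Fzd3 was the 1 member with both cKI f/+ libraries below both WT libraries, as in 18% of all tested genes. In the other 20 members the groups overlapped. With 2 libraries against 2, an exact permutation test of a single gene cannot give a two-sided p under 0.333, so every p-value here rests on the spread that edgeR shares across genes.

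The log2 fold changes of the 26 members (cKI f/+ minus WT) ranged from -0.52 to 1.54 with a median of 0.05, and the median over all tested genes was 0.00. Positive values were found in 15 members, where 51.2% of all tested genes had one. Each of the 26 members passed the filter on low counts with at least 1 library of each group above its limit. The 10 tested ligands had a median of 0.31, the 11 receptors 0.00 and the 3 Sfrp genes -0.12.

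**Figure D1:**
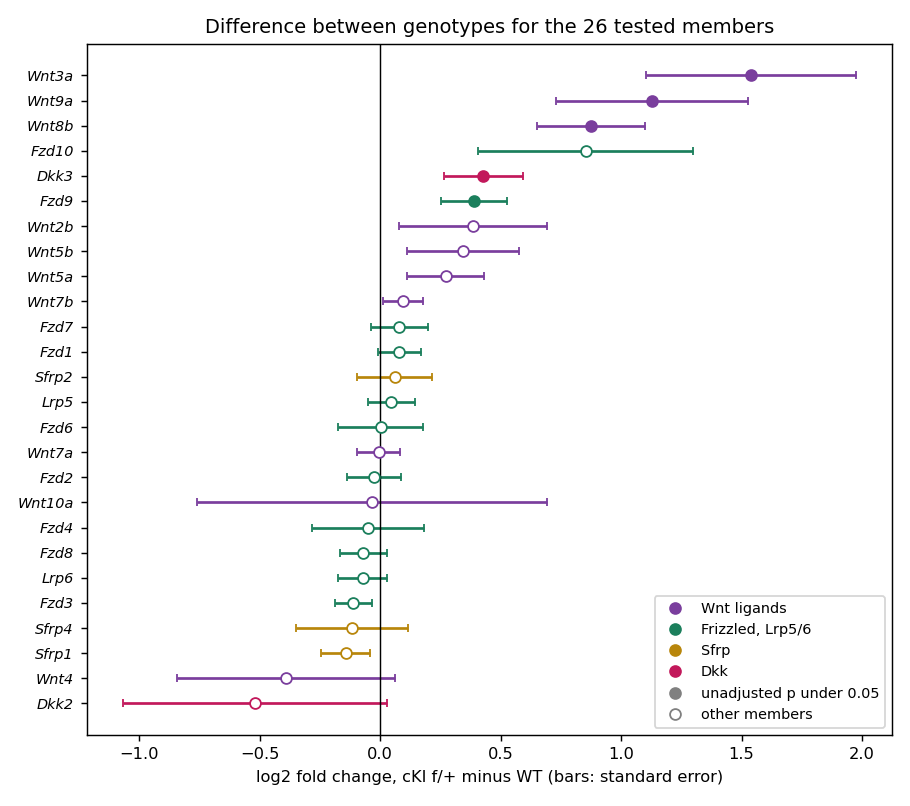
Log2 fold change (cKI f/+ minus WT, horizontal axis) of each tested Wnt family member, with its standard error as a bar and colour for the class. Filled points are the 5 members with an unadjusted p under 0.05, and all of them lie to the right of 0, from 0.39 for Fzd9 to 1.54 for Wnt3a.

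To compare members with each other, counts were divided by the length of the gene's exons and scaled to the same total in every library (TPM, a level per exon length). On this scale Wnt7b made up 75.1% of the summed level of the 18 ligands and Wnt7a 13.6%. Wnt7b stood at 282 and 250.4 TPM in KI2 and KI3 against 250.01 and 256 in WT1 and WT3. Wnt7a followed at 46.4, 46.6, 48.4 and 46.5 TPM in the same order of libraries. Both lay apart from each other and from the next ligand in every library, so this order did not depend on a single library.

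**Figure D2:**
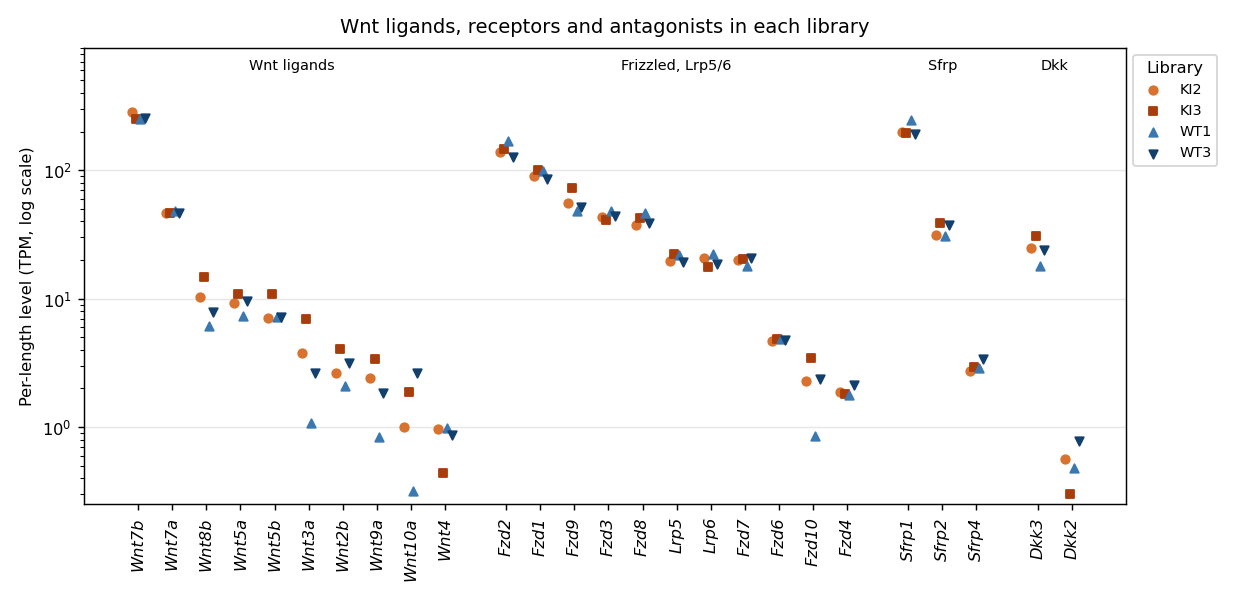
Per-length level (TPM, logarithmic vertical axis) of the 26 tested members in each of the 4 libraries, grouped by class and ordered by mean level. Wnt7b, Fzd2 and Sfrp1 lead their classes in every library, and the 4 points of the less abundant ligands such as Wnt3a spread far more than those of Wnt7a.

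Below them came Wnt8b with a mean of 9.77 TPM, Wnt5a with 9.23 and Wnt5b with 8.08. These neighbours in the order had overlapping ranges across the libraries. Wnt3a (3.60 TPM), Wnt2b (2.99 TPM), Wnt9a (2.12 TPM), Wnt10a (1.46 TPM) and Wnt4 (0.815 TPM) completed the tested ligands, and each overlapped with its neighbour among them. Wnt5b and Wnt3a did not overlap, with 7.07 TPM as the lowest value of Wnt5b and 6.96 TPM as the highest of Wnt3a.

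Summed over all 18 ligands, the level was 499 and 477 CPM in KI2 and KI3 against 430 and 468 in WT1 and WT3. Both cKI f/+ libraries lay above both WT libraries. The means were 488 ± 15.5 CPM (SD, n = 2) in cKI f/+ and 449 ± 26.9 CPM (SD, n = 2) in WT mice, a ratio of 1.09. KI3 and WT3 differed by less than the 2 WT libraries did from each other. Wnt7b weighs most in this sum.

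Of the ligands known from the cortical hem, Wnt3a and Wnt8b differed more between the genotypes than Wnt2b and Wnt5a did. Wnt9a, which is not in this group, also differed more than Wnt2b and Wnt5a. Wnt10a, also outside it, had the widest relative spread between libraries of the tested ligands. Wnt2b, Wnt3a, Wnt5a and Wnt8b together reached 38.1 CPM in KI2 and 51.7 in KI3 against 25.8 in WT1 and 36.6 in WT3. The means were 44.9 ± 9.66 CPM (SD, n = 2) in cKI f/+ and 31.2 ± 7.63 CPM (SD, n = 2) in WT mice, a ratio of 1.44. KI2 and WT3 lay close together, and the ratio was 1.22 without KI3 and 1.23 without WT1. On the per-length scale the ratio was 1.58. This grouping was made with the values known, and no test was run on the sum.

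Wnt8b (ENSMUSG00000036961, chromosome 19, from 44493472 to 44514273 on the plus strand of GRCm38) is a ligand of the hem and the adjoining hippocampal primordium. It stood at 10.5 and 15.5 CPM in KI2 and KI3 against 6.07 and 8.15 in WT1 and WT3. Both cKI f/+ libraries were above both WT libraries, with KI3 the highest. On the log2 scale the difference came to 0.88 (standard error 0.22, unadjusted p = 0.00320, adjusted p = 0.667 in edgeR), the smallest p of the 26 tested members. It was 0.57 without KI3, 1.11 without KI2, 0.68 without WT1 and 1.10 without WT3.

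Wnt3a (ENSMUSG00000009900, chromosome 11, from 59248033 to 59290752 on the minus strand) is the classical hem ligand that acts through beta-catenin. It had 54 and 104 reads in KI2 and KI3 and 15 and 38 in WT1 and WT3. As CPM this was 3.04 and 5.74 against 0.852 and 2.18. The groups did not overlap, but the 2 libraries of each genotype differed from each other by more than KI2 did from WT3. For Wnt3a the log2 fold change was 1.54 (standard error 0.44, unadjusted p = 0.00609, adjusted p = 0.875 in edgeR), the largest of the members. It was 1.01 without KI3 and 1.01 without WT1. It was 2.36 without WT3 and 1.91 without KI2, in fits where the lone library of a group is assumed to vary like the other group.

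Wnt9a (ENSMUSG00000000126) lies on the plus strand next to Wnt3a, from 59306928 to 59333552, with 16175 bases between the 2 genes. It had 42 and 61 reads in KI2 and KI3 and 14 and 32 in WT1 and WT3, which is 2.37 and 3.37 against 0.795 and 1.84 CPM. Its libraries had the same order as those of Wnt3a and Wnt8b, with KI3 first, then KI2, WT3 and WT1. For Wnt9a the difference was 1.13 on the log2 scale (standard error 0.40, unadjusted p = 0.0191, adjusted p = 0.969 in edgeR), and it ranged from 0.65 without WT1 to 1.85 without WT3.

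Wnt5a, a ligand known for beta-catenin-independent signalling, stood at 21.2 and 25.4 CPM in KI2 and KI3 and 16.4 and 22.3 in WT1 and WT3. Wnt2b stood at 3.27 and 5.13 against 2.50 and 3.96 CPM. In both genes WT3 lay above KI2, so the groups overlapped. The log2 fold changes were 0.27 (standard error 0.16) for Wnt5a and 0.39 (standard error 0.31) for Wnt2b. They were 0.07 for Wnt5a without WT1 and 0.03 for Wnt2b without KI3.

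The stretches of 250 bases just before the annotated start are shown for the 3 ligands with an unadjusted p under 0.05, from the RefSeq promoter table (GRCm38.p6), so that their base composition can be compared. The window of Fzd9 is not shown, because 183 of its 250 bases lie within the gene as the count table places it, and Dkk3 had no entry. Each reads 5′ to 3′ on the gene's own strand, and capitals mark CG dinucleotides. The windows are chr19:44493222-44493471 (plus strand) for Wnt8b, chr11:59290752-59291001 (minus strand) for Wnt3a and chr11:59306680-59306929 (plus strand) for Wnt9a.
Wnt8b: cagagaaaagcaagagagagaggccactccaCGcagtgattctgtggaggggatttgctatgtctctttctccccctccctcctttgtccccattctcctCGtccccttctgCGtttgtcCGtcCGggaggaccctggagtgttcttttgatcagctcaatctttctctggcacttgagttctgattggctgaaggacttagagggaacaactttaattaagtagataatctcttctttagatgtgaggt
Wnt3a: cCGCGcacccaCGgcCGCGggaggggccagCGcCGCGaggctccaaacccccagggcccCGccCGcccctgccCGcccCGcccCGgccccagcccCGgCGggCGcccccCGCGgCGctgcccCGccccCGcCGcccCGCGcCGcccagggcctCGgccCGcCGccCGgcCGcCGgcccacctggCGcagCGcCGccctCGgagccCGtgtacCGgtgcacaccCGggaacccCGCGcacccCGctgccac
Wnt9a: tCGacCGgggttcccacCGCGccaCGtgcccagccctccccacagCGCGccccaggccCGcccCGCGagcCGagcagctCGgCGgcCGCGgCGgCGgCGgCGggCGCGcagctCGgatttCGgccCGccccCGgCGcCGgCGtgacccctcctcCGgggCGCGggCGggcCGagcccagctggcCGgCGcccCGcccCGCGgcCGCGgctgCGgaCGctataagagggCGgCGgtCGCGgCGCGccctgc

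Wnt3a and Wnt9a had windows rich in G and C, with 87.6% and 84.4% of bases. They held 41 and 48 CG dinucleotides. The window of Wnt8b was different, with 48.4% G and C and 5 CG dinucleotides. Over the 27 windows of the 24 members with an entry, the medians were 68% and 22, whereas all 32851 windows in RefSeq had medians of 52.4% and 6. The core motif of Tcf and Lef factors, CTTTGA, was searched on both strands. It was in 0 of these 3 windows. It was in 14.8% of the members' windows, those of Dkk1, Fzd1, Wnt11 and 1 window of Wnt5b, and in 13.8% of all windows. The missing match says only that these letters are not in this window.

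The other ligands gave no difference between genotypes with an unadjusted p under 0.05. Wnt7b (ENSMUSG00000022382, chromosome 15, from 85535439 to 85581821 on the minus strand) is a ligand known from cortical neurons. It stood at 407 and 366 CPM in KI2 and KI3 against 351 and 376 in WT1 and WT3, so that KI3 was below WT3. Its log2 fold change of 0.10 had a standard error of 0.08 (adjusted p = 0.977 in edgeR). An antisense gene, AU022754, shares 324 bases, 6.61% of the exons of Wnt7b, and had between 71 and 101 reads. The counting is not stated to use strand, so reads of that stretch cannot be assigned to one of the 2 genes. Other annotated genes on the opposite strand share between 3.15% and 17.8% of the exons of Wnt5a, Wnt11, Fzd5, Fzd6 and Sfrp2, to which the same applies. The partner of Wnt5a had between 8 and 16 reads and that of Fzd6 at most 1, and those of Wnt11, Fzd5 and Sfrp2 were not analysed here.

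Wnt7a (ENSMUSG00000030093), known from the ventricular zone and from angiogenic signalling to brain vessels together with Wnt7b, had the smallest relative spread of the tested ligands. It stood at 43.4 and 44.2 CPM in KI2 and KI3 against 44.1 and 44.2 in WT1 and WT3. Its log2 fold change was -0.01 (standard error 0.09). Wnt5b stood at 5.53 and 8.61 CPM in KI2 and KI3 and 5.45 and 5.74 in WT1 and WT3. Only KI3 stood apart there, and without it the log2 fold change went from 0.34 to -0.01.

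Wnt10a and Wnt4 had few reads. Wnt10a had 13 and 25 reads in KI2 and KI3 and 4 and 34 in WT1 and WT3, so the 2 WT libraries were the extremes. Its log2 fold change of -0.03 had a standard error of 0.73 and became 2.19 without WT3. Wnt4 had 21 and 10 reads against 21 and 19, and its log2 fold change was -0.39 (standard error 0.45).

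The 8 remaining ligands were too low to be tested. Wnt3 had between 7 and 10 reads per library and Wnt6 between 3 and 5. Wnt1, Wnt2, Wnt8a, Wnt10b, Wnt11 and Wnt16 had at most 2 reads in any library, which is under the floor of 3 counts. No difference in these genes was detectable at this depth.

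Among the receptors, the genotypes were close for the abundant ones other than Fzd9. Per length, Fzd2 led with a mean of 145 TPM, followed by Fzd1 with 93.5, Fzd9 with 57.0, Fzd3 with 44.4 and Fzd8 with 41.2. Fzd2 and Fzd1 did not overlap with their lower neighbours, while Fzd9, Fzd3 and Fzd8 overlapped in turn. The co-receptors Lrp5 (20.8 TPM), Lrp6 (19.8 TPM) and the receptor Fzd7 (19.7 TPM) formed a group with overlapping ranges. Fzd6 (4.80 TPM), Fzd10 (2.24 TPM), Fzd4 (1.89 TPM) and Fzd5 (0.227 TPM) were lower.

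Summed over the 12 receptors, the level was 707 and 748 CPM in KI2 and KI3 against 767 and 697 in WT1 and WT3. The 2 WT libraries were the highest and the lowest. The means were 728 ± 28.8 CPM (SD, n = 2) in cKI f/+ and 732 ± 49.2 CPM (SD, n = 2) in WT mice, a difference smaller than either SD.

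Fzd9 (ENSMUSG00000049551, chromosome 5, from 135248938 to 135251230 on the minus strand) is a receptor of neural progenitors and the developing hippocampus. It stood at 37.5 and 49.9 CPM in KI2 and KI3 against 31.5 and 35.5 in WT1 and WT3. The groups did not overlap, although KI2 and WT3 were close. This was a log2 fold change of 0.39 (standard error 0.14, unadjusted p = 0.0190, adjusted p = 0.969 in edgeR), and 0.17 without KI3, with an unadjusted p of 0.262.

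Fzd10, a receptor found in the cortical hem, had 39 and 61 reads in KI2 and KI3 and 14 and 40 in WT1 and WT3. WT3 exceeded KI2, and WT1 was the low library. The log2 fold change was 0.85 (standard error 0.45, unadjusted p = 0.0867 in edgeR), and 0.28 without WT1.

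Fzd2 stood at 150 and 160 CPM in KI2 and KI3 against 178 and 139 in WT1 and WT3. Here the WT libraries enclosed both cKI f/+ libraries, and the log2 fold change was -0.02 (standard error 0.11). Fzd1 stood at 111 and 126 CPM in KI2 and KI3 and 118 and 108 in WT1 and WT3, with a log2 fold change of 0.08 (standard error 0.09). Both are receptors that can pass Wnt signals on to beta-catenin.

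Fzd3, a receptor of planar polarity signalling that guides growing axons, stood at 163 and 158 CPM in KI2 and KI3 and 178 and 170 in WT1 and WT3. Both cKI f/+ libraries were lower, but by little. The log2 fold change was -0.11 (standard error 0.08, unadjusted p = 0.177 in edgeR). Fzd8, on chromosome 18, stood at 65.9 and 75.4 CPM against 79.0 and 70.0, and its groups overlapped.

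Lrp5 and Lrp6, the co-receptors of beta-catenin signalling, had log2 fold changes of 0.05 (standard error 0.10) and -0.07 (standard error 0.10). Fzd4, a receptor of brain vessels that also binds Norrin, had 66 and 66 reads in KI2 and KI3 and 60 and 74 in WT1 and WT3. Fzd6, a planar polarity receptor, had 117 and 127 against 119 and 120 reads, and Fzd7 471 and 500 against 412 and 489. The log2 fold changes of these 3 receptors lay between -0.05 and 0.08. Fzd5, with between 7 and 12 reads, was not tested.

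The secreted antagonists were dominated by Sfrp1, which made up 84.6% of the per-length level of the 4 Sfrp genes. Sfrp1 (ENSMUSG00000031548, chromosome 8, from 23411502 to 23449632 on the plus strand) is a Wnt-binding protein of cortical radial glia. It stood at 254 and 253 CPM in KI2 and KI3 against 311 and 252 in WT1 and WT3. WT1 was the 1 library apart from the others, and the log2 fold change of -0.14 (standard error 0.10) became 0.02 without WT1. Sfrp2, a close relative of Sfrp1, stood at 19.9 and 25.1 CPM in KI2 and KI3 and 19.1 and 24.3 in WT1 and WT3, with a log2 fold change of 0.06 (standard error 0.15). Sfrp4 had 60 and 67 reads in KI2 and KI3 against 61 and 74, and its log2 fold change of -0.12 had a standard error of 0.23. Sfrp5 had at most 4 reads and was not tested.

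Dkk3 (ENSMUSG00000030772, chromosome 7, from 112116017 to 112159057 on the minus strand), the divergent member of its family, made up 97.1% of the per-length level of the Dkk genes. It stood at 24.6 and 30.7 CPM in KI2 and KI3 against 17.4 and 23.9 in WT1 and WT3. KI2 and WT3 differed by less than the libraries of either genotype did. The difference on the log2 scale was 0.43 (standard error 0.16, unadjusted p = 0.0280, adjusted p = 0.969 in edgeR), and it was 0.22 without WT1 and 0.26 without KI3. Dkk2 had 11 and 6 reads in KI2 and KI3 and 9 and 15 in WT1 and WT3, with a log2 fold change of -0.52 (standard error 0.55). Dkk1, itself a known target of beta-catenin, had 0, 3, 2 and 5 reads and was not tested.

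Many of the members shared the same highest and the same lowest library. In 10 of the 26 tested members KI3 was the highest library and WT1 the lowest, a pattern noticed after the values were seen and found in 11.7% of all tested genes. These were Wnt2b, Wnt3a, Wnt5a, Wnt5b, Wnt8b, Wnt9a, Fzd9, Fzd10, Sfrp2 and Dkk3. In 5 of them KI2 lay above WT3, and in the other 5 WT3 lay above KI2. The members share their libraries, so they are not independent counts of this pattern.

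**Figure D3:**
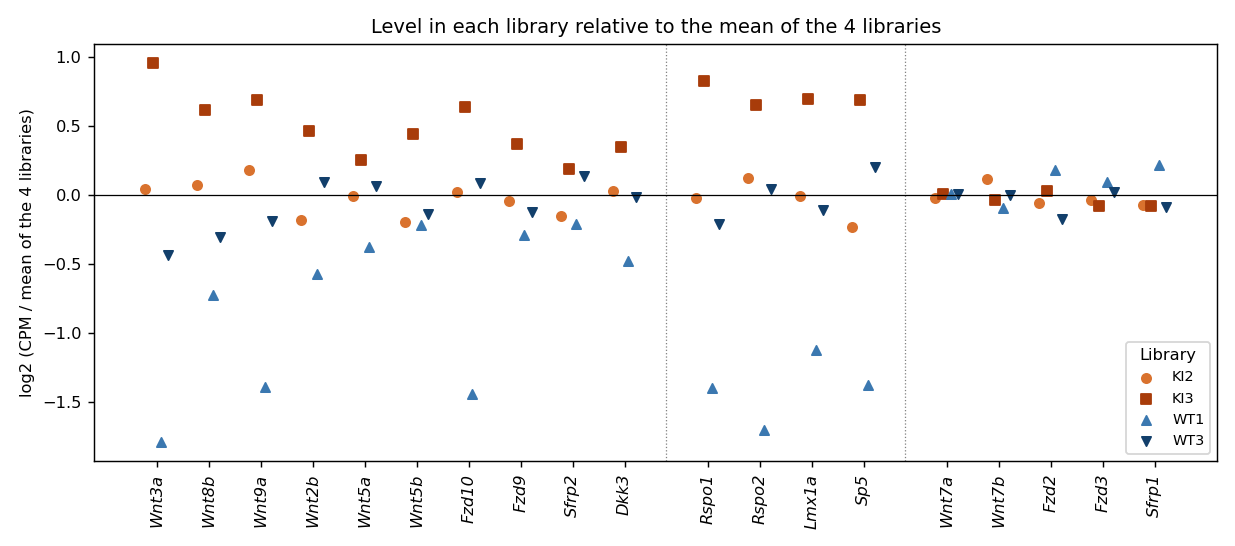
Level in each library as log2 of its CPM over the mean of the 4 libraries, for the 10 members with KI3 highest and WT1 lowest (left), 4 other genes (middle) and 5 abundant members (right). The 4 genes in the middle, Rspo1, Rspo2, Lmx1a and Sp5, also have KI3 highest and WT1 lowest. Square points (KI3) lie above 0 and upward triangles (WT1) below 0 on the left and in the middle by this choice of genes. The 5 members on the right stay close to 0. They leave out Fzd9 (left), which has a higher level per length than Wnt7a and Fzd3.

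Markers of tissue at the cortical margin also differed between the libraries. Of 11 listed genes of the cortical hem and Cajal-Retzius cells, which include 3 R-spondin genes, 10 were tested and 0 called, and 7 had both cKI f/+ libraries above both WT libraries, against 16% of all tested genes. Their summed level was 528 and 380 CPM in KI2 and KI3 and 390 and 376 in WT1 and WT3, most of it from Reln. Lmx1a, a hem transcription factor, had 48 and 80 reads against 22 and 44. It had the library order of Wnt3a and a log2 fold change of 0.92 (standard error 0.37, unadjusted p = 0.0355 in edgeR). Gdf7 had at most 4 reads in any library.

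Of 9 listed choroid plexus genes, 8 were measured, 6 tested and 0 called. Their sum was 13.5 and 79.9 CPM in KI2 and KI3 and 6.53 and 9.87 in WT1 and WT3. Ttr, the most abundant transcript of that epithelium, had 116 and 956 reads in KI2 and KI3 and 0 and 4 in WT1 and WT3. Of 10 meningeal genes, 6 were tested and 5 of these had both cKI f/+ libraries above both WT libraries, against the same 16% of all tested genes, with sums of 27.0 and 28.0 CPM against 14.1 and 15.6. The part of these tissues in the levels of the Wnt members was not tested. In bulk RNA, more cells of a type and more RNA per cell cannot be told apart.

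The 10 ventral telencephalic genes summed to 282 and 304 CPM in KI2 and KI3 and 285 and 361 in WT1 and WT3. Within that list 3 genes had a positive log2 fold change, against 51.2% of all tested genes, and the median was -0.16. Dlx2 had 437 and 609 reads in KI2 and KI3 against 679 and 862. Its log2 fold change was -0.59 (standard error 0.16, unadjusted p = 0.00486 in edgeR). Gsx2 had 2 and 28 reads against 29 and 40. Nkx2-1 went the other way, with 19 and 17 reads against 6 and 3. The 10 genes of endothelium and pericytes summed to 164 and 178 against 184 and 185 CPM, the 8 blood genes to 506 and 384 against 509 and 538, and the 6 microglial genes to 25.9 and 29.0 against 33.0 and 31.6. In these lists 5, 4 and 4 genes had both cKI f/+ libraries below both WT libraries, against 18% of all tested genes. Both lay above in 1, 1 and 0 genes, against 16%. The 8 genes of thalamus and diencephalon summed to 717 and 800 against 657 and 701 CPM, the same order of libraries as for Wnt3a, with nearly all of it from Lhx2, which the cortex also expresses, and Gbx2 and Sim1 among them had at most 1 read.

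The rest of the pathway was read from 6 lists, holding 95 genes in all. Of these, 82 were tested and 0 were called by edgeR, with 0.881 as the smallest adjusted p. DESeq2 also called 0. At an unadjusted p under 0.05 there were 4, of which 3 had higher and 1 had lower levels in cKI f/+ mice, and 4.6% of all tested genes met that threshold in either direction. The median log2 fold change of the 82 genes was 0.04.

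Among genes of Wnt secretion and extracellular regulation, 12 of 17 were tested. Rspo1 and Rspo2, which encode R-spondins that raise the amount of Frizzled at the cell surface, are also hem genes. Rspo1 had 139 and 256 reads in KI2 and KI3 and 53 and 120 in WT1 and WT3. Rspo2 had 100 and 148 against 28 and 93 reads. Both followed the library order of Wnt3a, with log2 fold changes of 1.16 (standard error 0.37, unadjusted p = 0.0113) and 1.0 (standard error 0.43, unadjusted p = 0.0441) in edgeR. The adjusted p of each was 0.969 in edgeR. With 1 library left out, the log2 fold changes ranged from 0.67 to 1.87 for Rspo1 and from 0.38 to 2.12 for Rspo2.

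Reck, which with Adgra2 serves the response of brain vessels to Wnt7 ligands, had 173 and 164 reads in KI2 and KI3 and 207 and 213 in WT1 and WT3. Its log2 fold change was -0.34 (standard error 0.15, unadjusted p = 0.0469 in edgeR). Porcn, the X-linked enzyme that adds the lipid to Wnt proteins, stood at 62.5 and 60.0 CPM in KI2 and KI3 and 66.4 and 65.1 in WT1 and WT3. Its log2 fold change was -0.10 (standard error 0.08).

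The other membrane receptors and co-receptors had 8 of 12 genes tested. The log2 fold changes were highest for Rnf43 (0.38, standard error 0.37) and Ror2 (0.27, standard error 0.18), and lowest for Ryk (0.05) and Lrp4 (0.02). In the cytoplasmic list all 29 genes were tested, from Csnk1g3 at -0.18 and Csnk1g1 at -0.14 to Dact2 at 0.19 and Axin2 at 0.23. The median there was 0.01. The 16 tested nuclear effectors ran from Tcf7l2 at -0.37 and Pygo1 at -0.11 to Tcf7l1 at 0.14 and Lef1 at 0.23. The 11 planar polarity genes lay between -0.15 for Vangl1 and 0.15 for Prickle2, with Ankrd6 at -0.09 and Celsr1 at 0.14.

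Of 17 listed target genes of beta-catenin, some of which are also in the other lists, 12 were tested. Of these, 9 had positive values, against 51.2% of all tested genes, with a median log2 fold change of 0.12. Axin2, the target used most widely as a readout, stood at 53.2 and 64.4 CPM in KI2 and KI3 against 47.9 and 53.1 in WT1 and WT3. KI2 and WT3 had nearly the same level, so that the groups only just did not overlap. Its log2 fold change was 0.23 (standard error 0.11, unadjusted p = 0.0712 in edgeR). Sp5 had 69 and 134 reads in KI2 and KI3 and 31 and 92 in WT1 and WT3, with overlapping groups and a log2 fold change of 0.69 (standard error 0.45).

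Tnfrsf19 had the smallest p-value of the targets. It stood at 106 and 117 CPM in KI2 and KI3 and 93.6 and 90.3 in WT1 and WT3, a log2 fold change of 0.28 (standard error 0.08, unadjusted p = 0.00712, adjusted p = 0.881 in edgeR). Myc, at -0.25 (standard error 0.12), and Sp8, at -0.18 (standard error 0.15), had the lowest values.

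**Figure D4:**
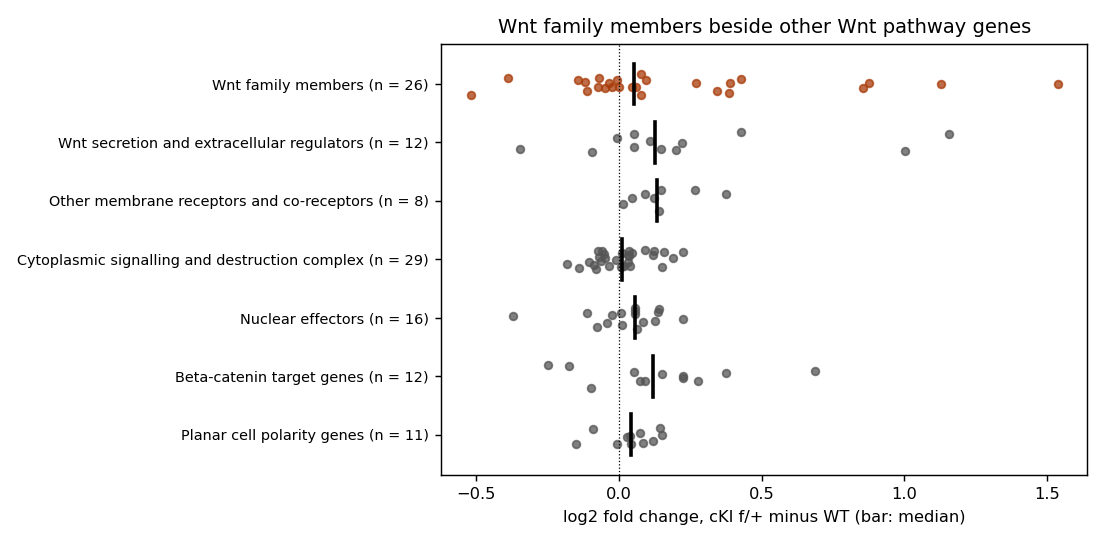
Log2 fold change (cKI f/+ minus WT, horizontal axis) of the 26 tested Wnt family members (top row) and of the tested genes in 6 lists of other pathway genes, 1 point per gene, with the median as a vertical bar. The 29 cytoplasmic genes stay between -0.18 and 0.23, while the members and the extracellular regulators reach 1.54 and 1.16.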

How the data were processed

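RNA from the telencephalon of E15 embryos, either cKI f/+ or WT, was sequenced, with 2 libraries of each analysed here, on an Illumina HiSeq instrument. The deposited values are the authors' raw counts of reads for each gene, with gene positions of build GRCm38. The submitters' processing notes name Bowtie2 2.2.3, TopHat2 2.0.12, HTSeq 0.6.0 and build mm9, and whether reads were counted by strand is not given in the sources used here. Columns of the deposited table with the authors' own fold changes, mean level and p-values were not used. Column names gave the genotype of each library, but not which labelled sample it was. The labels describe triplicates, and 4 libraries were analysed here.

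Counts were analysed with edgeR 4.0.16 in R 4.3.3. The default expression filter kept 15786 genes, which were normalized by TMM and tested by quasi-likelihood, and p-values were adjusted over all of them by Benjamini and Hochberg. A gene was called at an adjusted p under 0.05. Standard errors were the size of the log2 fold change over the square root of F. The biological coefficient of variation was 8.72%. Levels are CPM on the library total, and TPM from the union of exons in GENCODE M21. The floor covers counting error only, whereas the standard errors also include the spread between libraries. Libraries of a genotype were not copies, with a chi-square of 6.05 per degree of freedom for KI2 against KI3 and 8.09 for WT1 against WT3. Alternatives were DESeq2 1.42.0, other normalizations and filters, leaving out sex chromosomes, and leaving out each library in turn.

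Every member is accounted for. Members with an unadjusted p under 0.05, and the 3 with the highest level per length in each class, are given in full. Of each pathway list, the 2 highest and 2 lowest log2 fold changes and any with an unadjusted p under 0.05 are named, together with Xist and Kdm5d and genes of the marker lists chosen after their values were seen. The members and lists were chosen with earlier results of these data known.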

Additional observations from a re-analysis of the deposited data

How the results depend on the processing

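No paired analysis was possible. The paper describes the WT controls as littermates, but the labels used here tie no library to a litter. The sample labels of the 2 groups share fewer than 2 replicate numbers. Of the members, 0 were called under DESeq2, both other normalizations, both other filters and without chromosomes X and Y, and 5 had an unadjusted p under 0.05 in each of them, a count added after the data were seen. All genes called numbered 19, against 6 with at least 10 counts in every library and 11 without chromosomes X and Y. Both settings test fewer genes, and neither tests Xist or Kdm5d, which were among the 19. With 1 library left out, the lone library of a genotype is assumed to vary like the other genotype. These 4 fits called 46 to 71 genes, 0 to 2 members and 0 to 2 other pathway genes, had 2 to 10 members with an unadjusted p under 0.05, and had 12 to 19 members with positive values. The 2 members were Wnt8b and Wnt3a without KI2, and 1, Wnt3a, without WT3. The count of 10 was reached without WT3 and that of 2 without KI3. The cause was not tested.

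The ratios of summed levels (cKI f/+ over WT) ranged from 1.04 to 1.14 for ligands, 0.949 to 1.04 for receptors, 0.877 to 1.01 for antagonists and 1.22 to 1.74 for hem ligands when 1 library was left out.

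Log2 fold changes near 0 turned. Fzd6 (0.0017) became -0.00044 with DESeq2 size factors, -0.0037 with library size alone and -0.0040 with no filter beyond 1 count. With 1 library left out the ranges that crossed 0 were -0.29 to 0.016 for Sfrp1, -0.12 to 0.25 for Sfrp2, -0.26 to 0.039 for Sfrp4, -0.012 to 0.61 for Wnt5b, -0.87 to 2.19 for Wnt10a and -1.05 to 0.059 for Wnt4. They were -0.018 to 0.15 for Fzd1, -0.19 to 0.16 for Fzd2, -0.20 to 0.12 for Fzd4, -0.042 to 0.030 for Fzd6, -0.046 to 0.22 for Fzd7, -0.17 to 0.020 for Fzd8, -0.050 to 0.12 for Lrp5 and -0.20 to 0.034 for Lrp6. Among other pathway genes they were -0.015 to 0.49 for Ror2, -0.17 to 0.24 for Lrp4, -0.045 to 0.32 for Prickle2, -0.0022 to 0.10 for Ryk, -0.23 to 0.79 for Rnf43, -0.22 to 0.011 for Pygo1 and -0.0050 to 0.26 for Tcf7l1. The members with both cKI f/+ libraries above both WT libraries, Wnt3a, Wnt8b, Wnt9a, Fzd9 and Dkk3, stayed positive in every fit. With that pattern, leaving out 1 library could hardly turn the sign, so this adds no support. Wnt2b, Wnt5a, Wnt7b and Fzd10 also stayed positive in every fit, and Dkk2, Fzd3 and Wnt7a stayed negative.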
